A study of Homo sapiens with 4 samples.

Results

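The kinesin motor genes were the 42 rows, of 18398 in each table, whose symbol was KIF followed by a number and at most one of the letters A to C, or KIFC followed by a number from 1 to 3. RNA had been sequenced from Huh1 and Huh7, both established cell lines of human hepatocellular carcinoma, each transfected with 15 nM of a negative control siRNA (NCsiRNA) or of CDCA8-1siRNA and harvested after 48 h. CDCA8 encodes borealin, a subunit of the chromosomal passenger complex that also holds Aurora B, INCENP and survivin. Each line and siRNA was represented by 1 of the 4 libraries, so no spread between repeated transfections could be measured. Both groups of a line went through transfection, and untransfected cells were not analysed here.

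Kinesins are motor proteins that hydrolyse ATP to step along microtubules or to take their ends apart. Mitotic kinesins build the spindle, move chromosomes and organise the central spindle and midbody, and most of their genes are transcribed from late S phase to mitosis. Transport kinesins carry vesicles, organelles, mRNAs and ciliary cargo, mostly towards the cell periphery, throughout the cell cycle. By these roles 14 genes were grouped as mitotic kinesins, 17 as transport kinesins and 11 as ciliary, dual or other kinesins.

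The scale of the values corresponded to between 12197606 and 13384836 reads per library. CDCA8 stood at 24.1 RPKM (reads relative to transcript length and library depth) with NCsiRNA and 5.86 RPKM with CDCA8-1siRNA in Huh1, and at 51.5 and 7.36 RPKM in Huh7. The RNA left was 24.3% of the control in Huh1 and 14.3% in Huh7, in the direction of the labels. Of the hepatocyte markers, all 8 were detected, and 6 of them, among them ALB and APOB, were called lower with CDCA8-1siRNA by limma, as were 2.65% of all genes tested. These 6 calls were lost with no filter on low values, without the trend of the fit and without its cell line term. The markers of blood and endothelial cells were at or near 0 except CD68, which lay between 3.71 and 23.3 RPKM. Of the fibroblast markers, COL1A1 was at 107 RPKM or more in both Huh7 libraries and at no more than 0.122 RPKM in both Huh1 libraries, while DCN did not exceed 0.406 RPKM. In RNA of whole cultures, fewer cells that hold a transcript and less of that transcript per cell cannot be told apart.

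Of the 42 kinesin genes, 33 reached 1 RPKM in at least 1 library and entered the tests, and 9 stayed under 1 RPKM in all 4 libraries. The 33 comprised 12 mitotic, 15 transport and 6 other kinesins, and 29 of them reached 1 RPKM in both cell lines. KIF2B, a microtubule depolymerase, was at 0 in every library. KIF4B, an intronless near copy of the chromokinesin gene KIF4A, lay between 0.0844 and 0.111 RPKM, and how reads common to both genes were counted is not known, so its value is uncertain. The neuronal motor gene KIF1A did not exceed 0.0185 RPKM, and KIF17, a motor of neuronal vesicles and cilia, did not exceed 0.261 RPKM. The other genes under 1 RPKM were KIF6, KIF19, KIF25, KIF26A and KIF26B, with at most 0.112 RPKM.

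Among the genes tested, levels per transcript length spanned a narrower range in the mitotic than in the transport kinesins, with KIF2B and KIF4B left out by the filter and the low end of the transport range in Huh1 set by KIF5C, which passed through Huh7 alone. With NCsiRNA the 12 mitotic kinesins ranged from 8.22 to 36.3 RPKM in Huh1 (median 20.8) and from 7.61 to 64.5 RPKM in Huh7 (median 35.1). The 15 transport kinesins ranged from 0.0171 to 49.7 RPKM in Huh1 (median 4.78) and from 2.66 to 74.3 RPKM in Huh7 (median 9.45). The highest kinesin in each library was KIF5B, the ubiquitous heavy chain of conventional kinesin. The highest mitotic kinesin in each library was KIF23, the motor subunit of centralspindlin, which bundles microtubules in the central spindle.

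**Figure D1:**
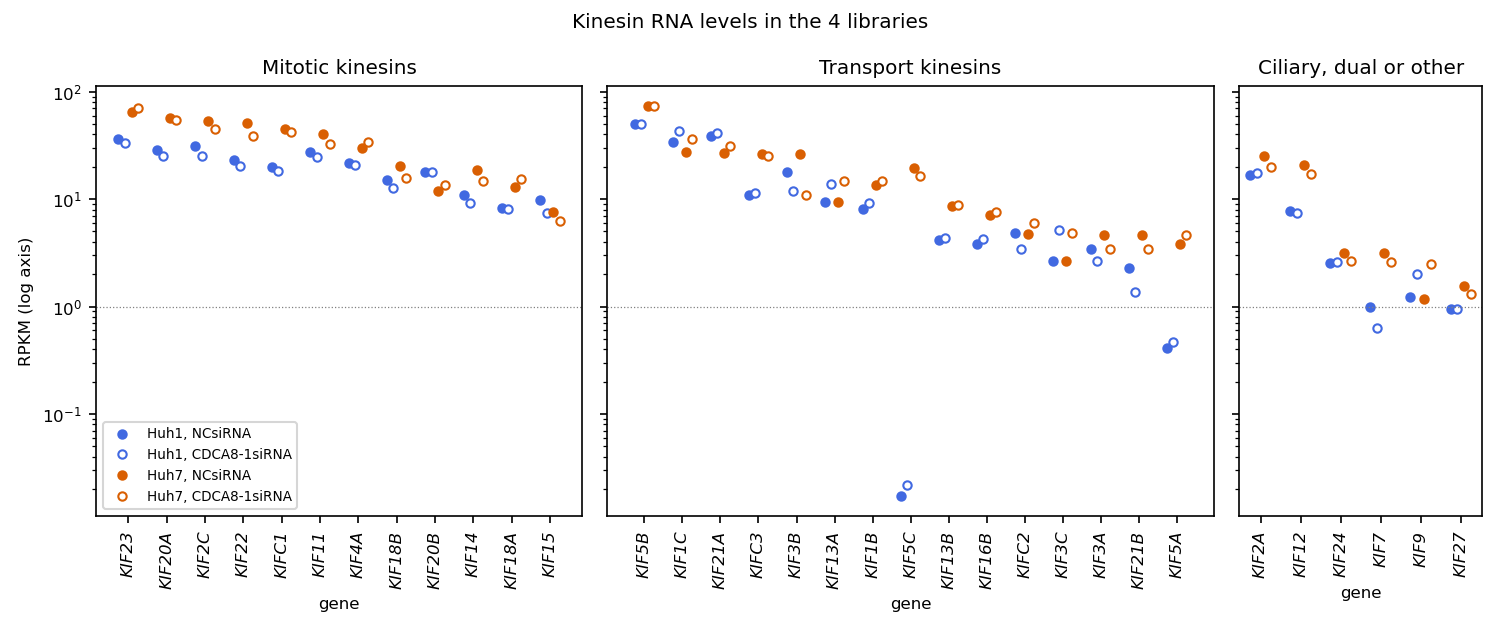
RPKM (log axis) of each of the 33 kinesin genes that reached 1 RPKM in at least 1 library, as 1 point per library, in blue for Huh1 and orange for Huh7, filled for NCsiRNA and open for CDCA8-1siRNA, with the dotted line at 1 RPKM. The mitotic kinesins lie within 6.32 to 70.7 RPKM in all 4 libraries, while KIF5C lies near 0.02 RPKM in Huh1 and above 16 RPKM in Huh7.

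The promoters of the classes also differed in the letters they held. RefSeq gave a promoter window of 300 bases, from 250 bases before to 50 bases after the transcription start, for 34 of the 42 kinesin genes, on the build GRCh38.p14. Each window was searched on both strands for TTTGAA, the core of the cell cycle genes homology region (CHR), for CCAAT, the CCAAT box, and for TTCCCGC, an E2F type site, and none of these letter strings contains another. The CHR letters were in 10 of 14 mitotic kinesin promoters (71.4%), 1 of 12 transport kinesin promoters (8.33%) and 0 of 8 others, against 9.85% of 8952 promoters of genes tested and 15.4% of all 27305 promoters. The CCAAT box was in 11 of 14 mitotic (78.6%), 3 of 12 transport (25%) and 3 of 8 other kinesin promoters (37.5%), against 37% of promoters of genes tested. Both stood together in 9 of 14 mitotic promoters (64.3%) and in 1 of 12 transport promoters, that of KIF5B, against 4.14% of promoters of genes tested. The E2F type letters were in 0 of 14 mitotic, 2 of 12 transport and 1 of 8 other kinesin promoters, against 10.3% of promoters of genes tested. The kinesin promoters included those of genes that were not tested, such as KIF2B, KIF4B, KIF1A and KIF17, unlike the promoters of genes tested. Only 1 window was taken per gene symbol. These matches describe letters in a fixed window and not sites in use.

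The promoters of 6 genes are printed, 5′ to 3′ on the strand of the gene, as the 250 bases before the start, with CHR and CCAAT letters in capitals in either orientation (TTTGAA or TTCAAA, and CCAAT or ATTGG). KIF23 (chr15:69414099-69414348, plus strand), KIFC1 (chr6:33391573-33391822, plus strand) and KIF11 (chr10:92592880-92593129, plus strand) show mitotic kinesins that hold both. KIF5B (chr10:32056426-32056675, minus strand) is the transport kinesin with both, and KIF3B (chr20:32277401-32277650, plus strand) and KIF3C (chr2:25982498-25982747, minus strand) are the transport kinesins with the largest limma differences between siRNAs in each direction.
KIF23: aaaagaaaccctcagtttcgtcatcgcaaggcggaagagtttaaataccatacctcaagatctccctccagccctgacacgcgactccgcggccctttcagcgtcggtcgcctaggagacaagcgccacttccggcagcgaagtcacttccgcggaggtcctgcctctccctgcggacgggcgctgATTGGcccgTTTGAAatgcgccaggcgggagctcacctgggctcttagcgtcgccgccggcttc
KIFC1: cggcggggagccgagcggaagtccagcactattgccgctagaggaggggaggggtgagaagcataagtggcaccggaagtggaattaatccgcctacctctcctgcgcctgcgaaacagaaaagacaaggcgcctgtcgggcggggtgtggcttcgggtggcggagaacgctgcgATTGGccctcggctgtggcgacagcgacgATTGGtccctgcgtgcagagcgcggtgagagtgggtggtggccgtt
KIF11: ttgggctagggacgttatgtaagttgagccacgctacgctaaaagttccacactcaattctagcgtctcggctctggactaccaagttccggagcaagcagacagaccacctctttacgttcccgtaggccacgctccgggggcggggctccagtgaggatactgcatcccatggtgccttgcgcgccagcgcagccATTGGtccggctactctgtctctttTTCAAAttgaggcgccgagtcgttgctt
KIF5B: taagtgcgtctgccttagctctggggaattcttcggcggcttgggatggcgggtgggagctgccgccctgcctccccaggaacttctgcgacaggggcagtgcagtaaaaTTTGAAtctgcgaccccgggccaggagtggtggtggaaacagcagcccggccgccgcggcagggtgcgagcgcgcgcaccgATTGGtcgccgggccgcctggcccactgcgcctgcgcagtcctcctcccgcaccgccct
KIF3B: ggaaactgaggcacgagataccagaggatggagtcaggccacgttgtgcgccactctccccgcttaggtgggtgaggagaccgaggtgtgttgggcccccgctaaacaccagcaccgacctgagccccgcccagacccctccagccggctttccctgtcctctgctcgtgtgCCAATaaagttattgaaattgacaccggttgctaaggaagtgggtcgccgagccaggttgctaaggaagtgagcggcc
KIF3C: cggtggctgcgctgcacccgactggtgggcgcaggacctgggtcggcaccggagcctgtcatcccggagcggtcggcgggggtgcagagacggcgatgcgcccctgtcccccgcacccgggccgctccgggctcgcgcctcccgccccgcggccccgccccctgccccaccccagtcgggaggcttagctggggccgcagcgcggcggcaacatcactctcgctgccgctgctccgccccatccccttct
In KIF23 and KIF11 the CCAAT box began 64 and 53 bases before the start and the CHR letters 55 and 28 bases before it. The CHR letters of KIFC1 began 4 bases after the first transcribed base and so lie outside the printed stretch. In KIF5B the CHR letters began 140 bases before the start, farther from it than in any mitotic kinesin that held them. KIF3B held a CCAAT box and no CHR letters, and KIF3C held neither.

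The first comparison asked whether the mitotic kinesins followed the loss of CDCA8 RNA. Differences were taken as log2(RPKM + 1) with CDCA8-1siRNA minus that with NCsiRNA, a scale on which genes of low RPKM appear to change less than their RPKM ratio. All 12 mitotic kinesins were lower in Huh1, with a median difference of -0.17 and a range from -0.37 to -0.01, against a median of 0.02 over the 10940 genes of that line that reached 1 RPKM. In Huh7, 8 were lower and 4 higher, with a median of -0.15 and a range from -0.37 to 0.24, against a median of 0.03 over 11565 genes. These counts were the same under quantile normalization and under upper quartile scaling. A limma model was fitted to the 4 libraries together, with cell line as a second term and Benjamini-Hochberg adjustment over 12148 genes. By limma 0 of the 12 had an adjusted p under 0.05, where 3.74% of all genes were called higher and 2.65% lower. For 12 genes, 0 calls is near that share. By limma 6 of the 12 had an unadjusted p under 0.05, as had 2767 of all 12148 genes. A gene's own spread in this fit is the disagreement between the cell lines, not that of repeated transfections. That spread had 1 residual degree of freedom against 7.48 prior ones. The variance behind each SE and p was therefore mostly borrowed from other genes.

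The motors that set up the spindle were lower in both lines. KIF11, the motor that pushes the spindle poles apart, stood at 27.7 and 24.6 RPKM with NCsiRNA and CDCA8-1siRNA in Huh1 and at 40.5 and 32.3 RPKM in Huh7. KIF15, which can stand in for KIF11, stood at 9.81 and 7.38 RPKM in Huh1 and at 7.61 and 6.32 RPKM in Huh7. KIFC1, a minus end motor that focuses the poles, stood at 19.9 and 18.3 RPKM in Huh1 and at 44.6 and 42.5 RPKM in Huh7. KIF15 in Huh1, at 75.2% of the control, was the lowest relative to control of the mitotic kinesins in that line, and KIFC1 kept 92.0% and 95.1% of the control level. For KIFC1 the 95% interval of the ratio from read counts held 1 in both lines (0.827 to 1.02 and 0.884 to 1.02). For KIF11 and KIF15 that interval, which covers counting error only, lay below 1 in both lines. None of KIF11, KIF15 and KIFC1 reached an adjusted p under 0.05 by limma (KIF11 0.180, KIF15 0.155, KIFC1 0.602).

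The motors that act on microtubule ends were lower in both lines, apart from KIF18A. KIF2C, a depolymerase of centromeres, stood at 31.3 and 25.0 RPKM in Huh1 and at 53.5 and 45.0 RPKM in Huh7. KIF18B, which shortens astral microtubules, stood at 15.1 and 12.6 RPKM in Huh1 and at 20.2 and 15.6 RPKM in Huh7. KIF18A, which damps the oscillation of chromosomes at the metaphase plate, stood at 8.22 and 8.01 RPKM in Huh1 and at 12.9 and 15.4 RPKM in Huh7. KIF2C had the smallest adjusted p of the mitotic kinesins (limma difference -0.28, adjusted p 0.112), at 80.0% of the control in Huh1 and 84.2% in Huh7. KIF18A in Huh7 was the mitotic kinesin with the highest level relative to control, at 119%.

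The chromokinesins, which bind chromosome arms, went apart. KIF22, which pushes chromosomes away from the poles, stood at 23.1 and 20.5 RPKM in Huh1 and at 50.7 and 39.0 RPKM in Huh7. KIF4A, which also limits the length of the central spindle with PRC1, stood at 21.7 and 20.9 RPKM in Huh1 and at 29.8 and 34.3 RPKM in Huh7. In Huh7, KIF22 was at 77.0% of the control and KIF4A at 115%.

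Of the motors of the central spindle and midbody, KIF14 was the lowest relative to control in both lines. KIF14, which recruits citron kinase to the midbody, stood at 11.0 and 9.20 RPKM in Huh1 and at 18.8 and 14.8 RPKM in Huh7. KIF20A, which carries the chromosomal passenger complex to the central spindle, stood at 28.7 and 24.9 RPKM in Huh1 and at 56.7 and 54.7 RPKM in Huh7. KIF23 stood at 36.3 and 33.2 RPKM in Huh1 and at 64.5 and 70.7 RPKM in Huh7. KIF20A, the partner of the complex that holds borealin, was thus at 86.9% of the control in Huh1 and 96.5% in Huh7. KIF20B, which acts late in cytokinesis, stood at 18.0 and 17.9 RPKM in Huh1 and at 12.0 and 13.4 RPKM in Huh7. The 95% interval of the ratio from read counts, which covers counting error only, was taken for the 11 mitotic kinesins with a known transcript length. It lay below 1 for 7 and above 1 for 0 in Huh1, and in Huh7 below 1 for 5 and above 1 for 4. For transport kinesins it lay below 1 for 4 and above 1 for 5 of 13 in Huh1, and for 4 and 6 of 15 in Huh7. Such intervals were not computed over all genes.

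The proteins that work with mitotic kinesins included genes with larger differences than the motors themselves. Of 17 mitotic partner genes tested, 3 were called lower and 0 higher by limma (9 had an unadjusted p under 0.05), with a median difference of -0.14 against 0.03 over all genes, of which limma called 2.65% lower and 3.74% higher. NUSAP1, a protein that bundles spindle microtubules, fell in Huh1 from 37.7 to 17.4 RPKM and in Huh7 from 95.3 to 32.8 RPKM (limma difference -1.29, SE 0.117, adjusted p 0.00220). PLK1, a kinase of mitotic entry and cytokinesis, fell in Huh1 from 30.4 to 21.7 RPKM and in Huh7 from 77.7 to 50.1 RPKM (limma adjusted p 0.0156). CEP55, an abscission scaffold of the midbody, fell from 51.3 to 41.2 RPKM and from 50.5 to 34.9 RPKM (limma adjusted p 0.0394). BIRC5, which encodes survivin, stood at 26.6 and 30.8 RPKM in Huh1 and at 39.3 and 67.2 RPKM in Huh7 (limma adjusted p 0.0656). Of the 12 genes used as markers of G2 and M phase, 11 were lower in each line, and 1, TOP2A, was called lower by limma (7 had an unadjusted p under 0.05). Of the 14 G1 and S phase markers, PCNA and CCNE1 were called lower. All 14 were lower in Huh7 (median difference -0.36), and 9 were lower and 5 higher in Huh1 (median -0.04). Of all genes, 5257 of 11565 were lower in Huh7 and 4915 of 10940 in Huh1. With no filter on low values or without the cell line term every call of these partners and phase markers was lost, and without the trend all were lost except NUSAP1. After quantile normalization limma called 5 of the 17 partners lower and 2, BIRC5 and ECT2, higher. It then called 3 of the 12 G2 and M phase markers lower. The part of these phase markers in the kinesin values was not tested.

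Among transport kinesins, 3 genes rose and 1 fell with CDCA8-1siRNA at a limma adjusted p under 0.05. Over all genes limma called 454 higher (3.74%) and 322 lower (2.65%) of 12148, and 3 and 1 of the 33 kinesins tested were 9.09% and 3.03%. Whether the classes differ in their share of calls was not tested. All 4 calls were lost with no filter on low values, in limma without the mean-variance trend and in limma without the cell line term. The median difference of the transport kinesins was 0.05 in Huh1 over 13 genes and 0.07 in Huh7 over 15 genes, near the medians of all genes. In Huh1, 9 were higher and 4 lower, and under quantile normalization 7 were higher and 6 lower. At a 2-fold difference on the log2(RPKM + 1) scale, 0 kinesins were higher and 0 lower in Huh1, where 0.320% and 0.174% of all 10940 genes were, and 0 were higher and 1, KIF3B, lower in Huh7, where 0.873% and 0.700% of all 11565 genes were.

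KIF3B and KIF3C, alternative subunits of the same motor, moved in opposite directions. Heterotrimeric kinesin pairs KIF3A with either KIF3B or KIF3C and binds cargo through KIFAP3, and its KIF3B form drives transport into cilia. KIF3B fell in Huh1 from 18.0 to 12.0 RPKM, a ratio of 0.665 (95% interval from read counts 0.613 to 0.722), and in Huh7 from 26.3 to 11.0 RPKM, a ratio of 0.417 (0.384 to 0.453). The 2 libraries with CDCA8-1siRNA lay close together and below both controls (limma difference -0.87, SE 0.148, adjusted p 0.0157). KIF3C rose in Huh1 from 2.65 to 5.14 RPKM, a ratio of 1.94 (1.63 to 2.33), and in Huh7 from 2.66 to 4.88 RPKM, a ratio of 1.83 (1.52 to 2.23). The controls of both lines stood at the same level and both CDCA8-1siRNA libraries above them (limma difference 0.72, SE 0.127, adjusted p 0.0177). KIF3C thus went from 12.8% to 30.0% of the summed RPKM of KIF3B and KIF3C in Huh1 and from 9.19% to 30.8% in Huh7, while that sum went from 20.6 to 17.1 RPKM and from 28.9 to 15.8 RPKM.

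**Figure D2:**
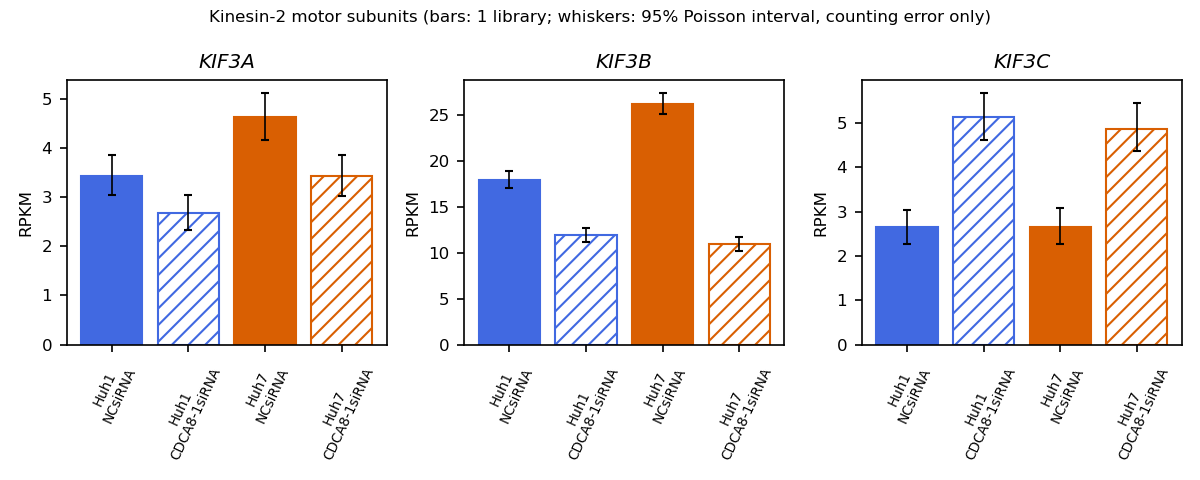
RPKM of KIF3A, KIF3B and KIF3C, 1 bar per library (filled for NCsiRNA, hatched for CDCA8-1siRNA), with whiskers for the 95% Poisson interval of the reads, which covers counting error only, and each gene has its own axis from 0. KIF3B is at 18.0 and 26.3 RPKM with NCsiRNA and 12.0 and 11.0 RPKM with CDCA8-1siRNA, and KIF3C lies near 2.7 RPKM with NCsiRNA and near 5 RPKM with CDCA8-1siRNA.

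The shared subunits differed less. KIF3A stood at 3.44 and 2.67 RPKM in Huh1 and at 4.63 and 3.43 RPKM in Huh7 (limma adjusted p 0.198). KIFAP3 stood at 4.41 and 4.45 RPKM in Huh1 and at 8.95 and 10.8 RPKM in Huh7 (limma adjusted p 0.574). The difference of KIF3B between siRNAs was larger in Huh7 than in Huh1 by 0.64 on the log2(RPKM + 1) scale, with an SD of 0.0789 from counting alone, and without replicates no test beyond counting could be made.

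KIF13A and KIF1C were the other transport kinesins that rose. KIF13A, which moves recycling endosomes and mannose 6-phosphate receptors, rose in Huh1 from 9.46 to 13.7 RPKM and in Huh7 from 9.45 to 14.7 RPKM (limma difference 0.54, SE 0.105, adjusted p 0.0239). KIF1C, a motor of the Golgi and of dense core vesicles, rose in Huh1 from 34.0 to 43.1 RPKM and in Huh7 from 27.2 to 36.5 RPKM (limma difference 0.37, SE 0.0916, adjusted p 0.0497). The control levels of KIF13A were alike in both lines, and the call of KIF1C was lost with a pseudocount of 0.1 RPKM, at an adjusted p of 0.0551.

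KIF5B, KIF21A and KIFC3, among the most abundant transport kinesins, had no limma call between siRNAs. KIF5B stood at 49.7 and 50.04 RPKM in Huh1 and at 74.3 and 73.4 RPKM in Huh7. KIF21A, a slow motor that restrains microtubule growth at the cell cortex, stood at 38.7 and 41.2 RPKM in Huh1 and at 26.9 and 31.3 RPKM in Huh7. KIFC3, a minus end motor of apical vesicles and cell junctions, stood at 11.0 and 11.4 RPKM in Huh1 and at 26.1 and 25.3 RPKM in Huh7. KIF5B was at 101% of its control in Huh1 and at 98.8% in Huh7. KIF1B, which carries mitochondria and vesicle precursors, stood at 8.14 and 9.21 RPKM in Huh1 and at 13.6 and 14.7 RPKM in Huh7, higher with CDCA8-1siRNA in both lines but without a limma call (adjusted p 0.504). The remaining 6 transport kinesins had limma adjusted p from 0.129 to 0.899. The lowest of them relative to control was KIF21B in Huh1, at 60.0%, and limma called KIF21B lower after quantile normalization.

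**Figure D3:**
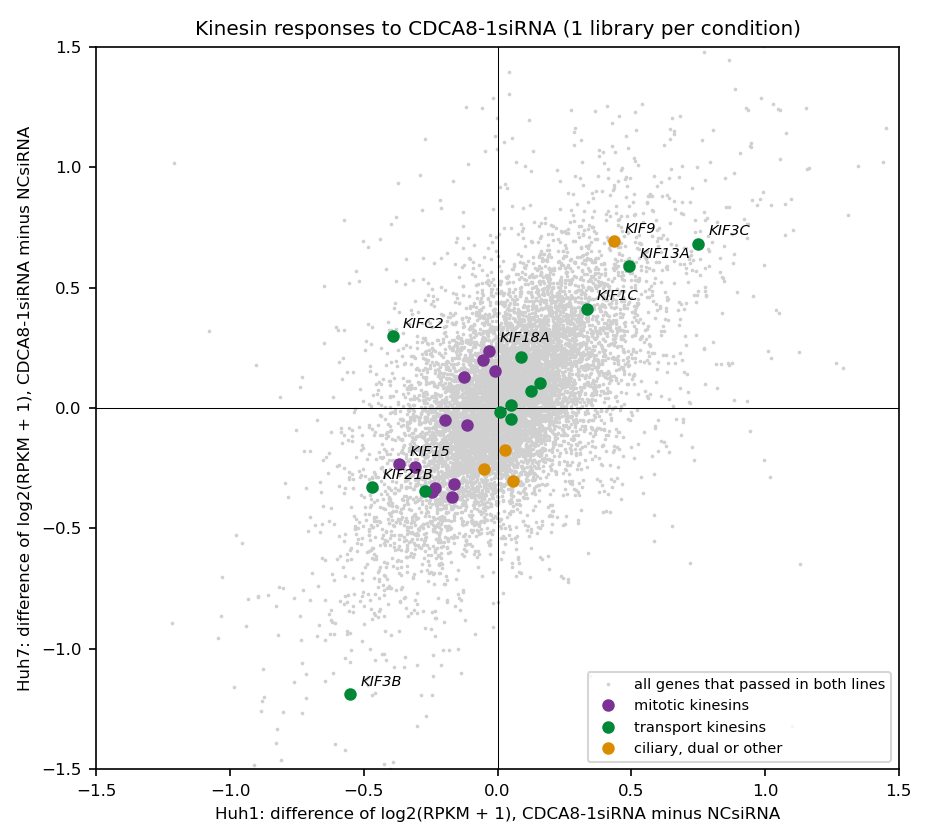
Difference of log2(RPKM + 1), CDCA8-1siRNA minus NCsiRNA, in Huh1 (x axis) against Huh7 (y axis) for the 29 kinesin genes that reached 1 RPKM in both lines, coloured by class, over all genes that did so in grey, where genes beyond 1.5 on either axis are outside the panel. The 12 mitotic kinesins lie left of 0 on the Huh1 axis and from -0.37 to 0.24 on the Huh7 axis, with KIF3B at the lower left (-0.55 and -1.19) and KIF3C at the upper right (0.75 and 0.68).

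The adaptors that link transport kinesins to cargo and the dynein motor that runs the other way gave no call in the fit described above. Of 17 cargo partner genes and 12 genes of cytoplasmic dynein and dynactin tested, limma called 0 (9 and 3 had an unadjusted p under 0.05), with median differences of 0.19 and 0.09. Over all 12148 genes limma called 3.74% higher and 2.65% lower, and 2767 had an unadjusted p under 0.05. The median difference of all genes was 0.03. In lists this short, 0 calls is near the share of all genes. TRAK1, the mitochondrial adaptor of KIF5 motors, stood at 5.64 and 7.72 RPKM in Huh1 and at 7.78 and 11.1 RPKM in Huh7 (limma adjusted p 0.0562). KLC4, a kinesin light chain, stood at 7.41 and 5.04 RPKM in Huh1 and at 5.25 and 3.70 RPKM in Huh7 (limma adjusted p 0.0622). TRAK1 was higher and KLC4 lower with CDCA8-1siRNA in both lines. DYNC1H1, the heavy chain of dynein, stood at 74.7 and 91.4 RPKM in Huh1 and at 80.3 and 102 RPKM in Huh7 (limma adjusted p 0.0586). FYCO1 and PLEKHM1, adaptors of late endosomes, were also among the 4 cargo partners with the largest differences (limma 0.42 and 0.41). Calls appeared in some alternatives. After quantile normalization limma called DYNC1H1 and DYNC1I2 higher and KLC4 and DYNLL2 lower. With 1 RPKM asked of each line, TRAK1 and DYNC1H1 were called higher and KLC4 and DYNLL2 lower. TRAK1 was also called higher with a minimum of 5 RPKM.

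The second comparison asked how the motors differed between the cell lines. Most kinesins, and nearly all mitotic ones, were higher in Huh7. By limma with the siRNA as a covariate, 21 of 33 kinesins were higher in Huh7 and 3 were lower, that is 63.6% and 9.09%, where 42.5% and 28.7% of all 12148 genes were called higher and lower. Of the 33, KIF5A, KIF5C, KIF7 and KIF27 entered through Huh7 alone and none through Huh1 alone, and with 1 RPKM asked of each line, a filter chosen after seeing the data, 18 of 29 kinesins and 4045 of 10357 genes were called higher. Among mitotic kinesins 10 of 12 were called higher and 1 lower, and among transport kinesins 8 of 15 higher, KIF5A and KIF5C among them, and 2 lower. With no filter on low values the mitotic calls were 6 higher and 0 lower, as KIF4A, KIF11, KIF18A, KIF18B and KIF20B were lost, and the call of KIF18B was also lost under quantile normalization and without the siRNA term. The median difference, Huh7 minus Huh1, was 0.70 for mitotic and 0.56 for transport kinesins against 0.14 for all genes. A gene's own spread behind these calls is the disagreement of the line difference between the siRNAs, not that of repeated cultures. The variance was again mostly borrowed from other genes.

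The mitotic kinesins with the largest line difference were near a 2-fold difference. KIFC1 was 2.24 times as high in Huh7 as in Huh1 with NCsiRNA and 2.32 times with CDCA8-1siRNA (limma difference 1.15, SE 0.0929, adjusted p 7.7e-06). KIF20A was 1.98 and 2.19 times as high (limma difference 1.03, adjusted p 1.5e-05), and KIF22 was 2.19 and 1.91 times as high (limma difference 1.00, adjusted p 2.5e-05). The same 10 mitotic kinesins were higher in Huh7 under both siRNAs. KIF20B went the other way, at 0.664 and 0.749 times the Huh1 level (limma difference -0.47, adjusted p 0.00318), and KIF15, at 0.776 and 0.856 times, was not called (limma adjusted p 0.0632). KIF15 was called lower after quantile normalization (limma adjusted p 0.00695) and after upper quartile scaling (0.0359). Of the mitotic partners 14 of 17 and of the G2 and M phase markers 10 of 12 were called higher in Huh7 and 0 lower. Of all genes, 42.5% were called higher and 28.7% lower. With no filter on low values, 8 of 17 partners, 9 of 12 markers and 3314 of all 18398 genes were called higher. The motors thus shared this direction with many genes of these lists. COL1A1 and COL1A2 and the hepatocyte marker AFP also stood apart between the lines, AFP at 24.8 and 865 RPKM with NCsiRNA in Huh1 and Huh7, and their part in the kinesin differences was not tested.

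The neuronal heavy chains of conventional kinesin, KIF5A and KIF5C, stood far apart between the lines. KIF5C, a heavy chain found mostly in neurons, was at 0.0171 and 0.0220 RPKM in Huh1, about 2 reads in each library, and at 19.4 and 16.5 RPKM in Huh7. With NCsiRNA this was a ratio of 1139 (95% interval from read counts 249 to 7454). KIF5A, the other neuronal heavy chain, was at 0.407 and 0.467 RPKM in Huh1 and at 3.81 and 4.60 RPKM in Huh7, 9.35 times as high with NCsiRNA (interval 6.43 to 13.9). Both genes entered the test through Huh7 alone, so the filter fixed the direction of their difference, though not its size. KIF5B was the bulk of this trio in both lines, at 99.2% of its summed RPKM in Huh1 and 76.2% in Huh7 with NCsiRNA, and KIF5C made up 0.0340% and 19.9%.

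KIF21A and KIF1C were called lower in Huh7, and KIFC3 higher. KIF21A was at 0.695 and 0.759 times its Huh1 level with NCsiRNA and CDCA8-1siRNA (limma difference -0.45, SE 0.0932, adjusted p 0.00230). KIF1C was at 0.798 and 0.846 times its Huh1 level (limma difference -0.28, adjusted p 0.0240). The limma call of KIF1C was lost with no filter on low values (adjusted p 0.0620), without the trend (0.0558) and without the siRNA term (0.271), and that of KIF21A with no filter (0.0501). KIFC3 was 2.39 and 2.22 times as high in Huh7 (limma difference 1.13, adjusted p 1.3e-05). KIF3B, KIF3C and KIF13A, which moved with the siRNA, were not called between the lines. KIF3B was nevertheless 1.46 times as high in Huh7 as in Huh1 with NCsiRNA (interval from read counts 1.36 to 1.56). With CDCA8-1siRNA, KIF3B was at 0.916 times its Huh1 level (interval 0.834 to 1.01). The fit averages the line difference over both siRNAs, so the missing call does not show that KIF3B was alike in the control libraries.

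**Figure D4:**
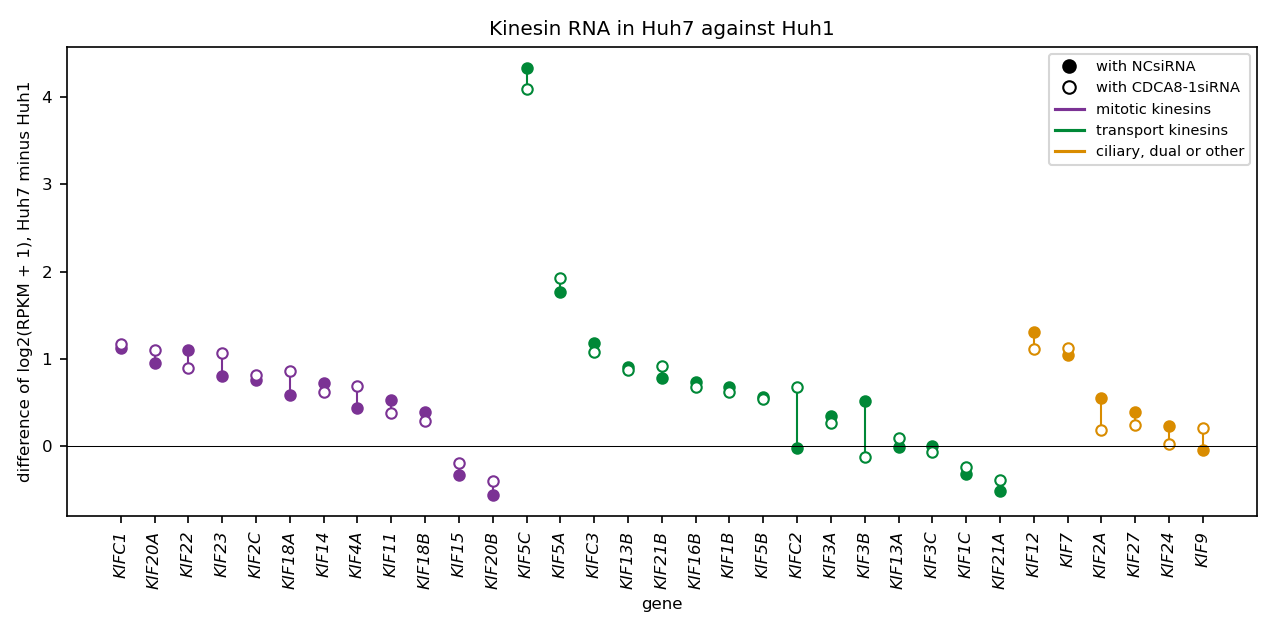
Difference of log2(RPKM + 1), Huh7 minus Huh1, of the 33 kinesin genes tested, with NCsiRNA (filled) and with CDCA8-1siRNA (open), joined by a line and coloured by class. Of the 12 mitotic kinesins, 10 lie above 0 under both siRNAs, while KIF15 and KIF20B lie below it, and KIF5C stands highest, at 4.33 and 4.10.

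Among the 11 ciliary, dual or other kinesins, 6 were tested and 0 were called between siRNAs (1 had an unadjusted p under 0.05). Over all genes limma called 3.74% higher and 2.65% lower. KIF9, a motor of motile cilia named here after its values were seen, stood at 1.23 and 2.01 RPKM in Huh1 and at 1.17 and 2.50 RPKM in Huh7 (limma difference 0.56, adjusted p 0.0718). KIF9 was called higher by limma only with 1 RPKM asked of each line. It was higher with CDCA8-1siRNA in both lines, at 164% and 214% of the control, so its RPKM ratio in Huh7 was over 2 while its difference of log2(RPKM + 1) there was 0.69. KIF2A, a depolymerase of spindle poles and growing neurites and the most abundant of this class, stood between 16.7 and 25.0 RPKM over the 4 libraries. Between the lines, 3 of the 6 (KIF2A, KIF7 and KIF12) were called higher in Huh7 and 0 lower, a share near the 42.5% of all genes called higher, and KIF7 and KIF27 had entered through Huh7 alone.

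Summed over each class, mitotic kinesins outweighed transport kinesins in all 4 libraries. The mitotic sum was 251 RPKM with NCsiRNA and 223 RPKM with CDCA8-1siRNA in Huh1, and 412 and 384 RPKM in Huh7. The transport sum was 191 and 203 RPKM in Huh1 and 259.5 and 262 RPKM in Huh7. The ratio of the sums was therefore lower with CDCA8-1siRNA in both lines, at 1.32 and 1.10 in Huh1 and at 1.59 and 1.47 in Huh7, with no replicate to set an error on it. The order of genes within each class was largely kept between the control libraries of the lines, with Spearman's rho of 0.902 over 12 mitotic and 0.811 over 15 transport kinesins, which share library and transcript length, as a description across genes.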

How the data were processed

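RNA of Huh1 and Huh7 cells with NCsiRNA or CDCA8-1siRNA was sequenced in 4 libraries made with an Illumina TruSeq RNA kit. The groups came from the labels, while the siRNA variant, dose and time came from the methods of the study. The authors deposited 1 RPKM value for each of 18398 RefSeq transcripts per library. The unit was deduced from values that, multiplied by transcript length, gave the same constant in 116 to 126 genes per library. That constant was taken as 1 read. The submitters' processing notes name CASAVA 1.8.2, TopHat2 2.0.9 and hg19, and the counter and annotation are not given in the sources used here. Reads behind a value were rebuilt from GENCODE transcript lengths, which 2 kinesins (KIF18B and KIF6) lacked. These reads were often fractional, such as 1.58 for KIF5C in Huh1 with NCsiRNA. They were used only for the SD from counting and, rounded, for 95% intervals (exact binomial for ratios, Poisson for levels). Both cover counting error only.

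From the RPKM, log2(RPKM + 1) was fitted with limma 3.58.1 in R 4.3.3 over the 12148 genes that reached 1 RPKM in any library. The terms were siRNA and cell line, with Benjamini-Hochberg adjustment at 0.05. The eBayes step used a mean-variance trend, with 1 residual and 7.48 prior degrees of freedom. Within a line, genes were counted at a 2-fold difference with no test. The members and all gene lists were chosen with earlier results of these data known. Values were given for the mitotic kinesins that passed the filter, the 8 most abundant transport kinesins, any other kinesin called or changed 2-fold, and up to 4 members per partner list. Members of other roles were named as part of a complex or as examples. Promoters came from RefSeq. A planned search of the motor domain's P-loop was not run, as no protein table was used here. Other scalings, pseudocounts, filters and fits were tried as alternatives. The rest was done in Python 3.11.15 (scipy 1.17.1, pandas 2.3.3, numpy 2.4.6).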

Additional observations from a re-analysis of the deposited data

Results flagged for a closer look

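For 9 kinesins the difference between siRNAs had opposite signs in Huh1 and Huh7. The gap between the lines, Huh7 minus Huh1 on the log2(RPKM + 1) scale, was not tested, since each condition had 1 library, and only the SD from counting reads can be set beside it. Of the mitotic kinesins, the gap was 0.271 for KIF18A (counting SD 0.120), 0.257 for KIF23 (0.063), 0.255 for KIF4A (0.073) and 0.161 for KIF20B (0.078), each lower in Huh1 and higher in Huh7. Of the transport kinesins, it was 0.691 for KIFC2 (0.171), which was lower in Huh1 and higher in Huh7, and -0.096 for KIFC3 (0.107) and -0.027 for KIF5B (0.042), both smaller than their counting SD. Of the other kinesins, it was -0.363 for KIF2A (0.109) and -0.202 for KIF24 (0.145), higher in Huh1 and lower in Huh7.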

How the results depend on the processing

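No replicate could be left out, since each condition had 1 library, and depth limits KIF5C in Huh1 to about 2 reads. The kinesins lower with CDCA8-1siRNA numbered 1, and 0 with no filter on low values, 0 by limma without the trend, 0 by limma without the covariate and 2 after quantile normalization. Those higher numbered 3, and 0 with no filter, 0 without the trend and 0 without the covariate. Over all genes limma called 454 higher and 322 lower, 30 and 15 without the trend, 635 and 625 after quantile normalization, and 0 and 0 with no filter (2050 with an unadjusted p under 0.05) or without the covariate (75). Quantile normalization moved the share of higher calls from 58.5% to 50.4% between siRNAs and from 59.6% to 50.03% between lines. KIF3B, KIF3C and KIF13A were called in 5 of 8 alternatives (adjusted p from 0.000387, 0.00629 and 0.00913 up to 1) and KIF1C in 4 of 8 (0.0289 to 1). One of the 8, at least 1 RPKM in each line, was added after seeing the data. The kinesins lower in Huh7 than in Huh1 numbered 3, and 1 with no filter (KIF25, which is under 1 RPKM), 2 without the trend, 2 without the covariate, and 4 after quantile normalization or upper quartile scaling. The mitotic median in Huh7, -0.152, was -0.061 with no filter and -0.234 with KIF2A counted as mitotic. Of the 21 kinesins refitted one by one, signs turned for differences near 0, after quantile normalization KIF5B (0.0103) and KIFC3 (-0.0260) between siRNAs and KIF13A (-0.0599, and -0.0012 after upper quartile scaling) between lines. Within lines, transport kinesins higher and lower in Huh1 went from 9 and 4 to 7 and 6 (quantile) or 8 and 5 (upper quartile), and in Huh7 from 9 and 6 to 8 and 7 (quantile). Why calls changed was not tested.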
